A study of Mus musculus with 13 samples.

Results

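De novo lipogenesis, the building of fatty acids from carbohydrate carbon, was followed in mouse epididymal fat through 10 genes: Acly, Me1, Acaca, Acacb, Fasn, Scd1, Elovl6, Mlxipl, Srebf1 and Thrsp. They were chosen by name as the enzymes of the pathway and its regulators, and each was read by its probe set of 1 gene symbol with the highest mean over all arrays. All 10 were measured, among 18820 genes in all. RNA came from whole epididymal white adipose tissue, a visceral depot, of male mice aged 18 weeks that had eaten 1 of 2 diets for 12 weeks from the age of 6 weeks, and was read on 13 Affymetrix arrays. The groups were knockouts of P2X7 on a high-fat diet with 60% of energy from fat (4 arrays), the same knockouts on low-fat chow with 13% of energy from fat (3 arrays), wild-type C57BL/6 mice given the high-fat diet (3 arrays) and wild-type mice given chow (3 arrays). The knockout strain, B6.129P2-P2rx7tm1Gab/J, had been backcrossed to the B6 background over 7 generations. The knockout carries the altered P2rx7 allele in every cell, and both strains were bought and then bred in the same facility. P2X7 is an ion channel gated by ATP outside the cell, and the study set the diet against its loss in fat tissue. Whether each array held RNA of 1 animal is not stated in the labels, so a p-value here measures spread between samples that may be technical.

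Lipogenesis starts in the cytosol, where citrate from the mitochondria is split to acetyl-CoA. Acetyl-CoA carboxylase turns acetyl-CoA into malonyl-CoA, fatty acid synthase joins these units into palmitate with NADPH as reductant, and elongases and desaturases lengthen the product and add double bonds. In fat cells the pathway is controlled by insulin and glucose, largely through the transcription factors ChREBP (gene Mlxipl) and SREBP-1 (gene Srebf1), and it is known to be low in fat tissue when the diet supplies much fat.

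Promoters of the pathway are known for E boxes, which ChREBP and the USF factors can bind, for sterol regulatory elements, bound by SREBPs, and for the inverted CCAAT and GC boxes bound by NF-Y and Sp1. RefSeq (GRCm38.p6) gave start sites for 9 of the 10 genes, with 13 windows in all; Scd1 was not among them. In the 250 bases before each start, both strands were searched for the E box CACGTG, the inverted CCAAT box ATTGG, the GC box GGGCGG and the sterol element TCACNCCAC; none of these letter strings contains another. The inverted CCAAT box was in 7 of the 13 windows, those of 6 genes, against 33.8% of all 32851 windows in the table. The GC box was in 5 windows of 4 genes, against 32.7% of all windows, the E box in 1 window against 6.02%, and the sterol element in 1 window against 1.05%. The E box and the sterol element both lay before Mlxipl, whose starts are 17.0 kb apart and which is known to be made as 2 isoforms from alternative first exons. The windows of Acaca and Elovl6 held none of these motifs, although Acaca also fell with the diet in both genotypes. The 5 windows below are shown because they belong to the 3 regulators and to the synthase, all of which fell with the diet in both genotypes. Whether motifs go with the fall was not tested. Of the 3 windows of Srebf1, the one with both an inverted CCAAT box and GC boxes is shown. Capitals mark the motifs on either strand, and each runs 5′ to 3′ on the strand of the gene.
Mlxipl, first start, chr5:135089640-135089889, plus strand: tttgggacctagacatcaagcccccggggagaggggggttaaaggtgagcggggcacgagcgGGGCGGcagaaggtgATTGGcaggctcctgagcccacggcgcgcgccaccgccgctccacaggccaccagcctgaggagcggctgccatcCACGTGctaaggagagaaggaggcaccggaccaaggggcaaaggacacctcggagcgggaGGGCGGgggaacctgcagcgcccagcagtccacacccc
Mlxipl, second start, chr5:135106641-135106890, plus strand: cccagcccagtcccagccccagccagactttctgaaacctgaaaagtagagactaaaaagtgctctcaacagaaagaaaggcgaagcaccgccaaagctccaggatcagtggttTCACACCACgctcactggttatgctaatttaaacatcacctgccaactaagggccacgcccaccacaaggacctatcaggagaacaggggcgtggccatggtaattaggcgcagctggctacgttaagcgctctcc
Srebf1, the start farthest along the gene, chr11:60210472-60210721, minus strand: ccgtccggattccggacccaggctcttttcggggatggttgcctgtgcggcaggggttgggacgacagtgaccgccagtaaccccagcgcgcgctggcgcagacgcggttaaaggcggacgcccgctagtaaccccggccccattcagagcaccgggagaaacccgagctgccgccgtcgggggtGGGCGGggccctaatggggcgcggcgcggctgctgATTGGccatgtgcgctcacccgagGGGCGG
Thrsp, chr7:97417551-97417800, minus strand: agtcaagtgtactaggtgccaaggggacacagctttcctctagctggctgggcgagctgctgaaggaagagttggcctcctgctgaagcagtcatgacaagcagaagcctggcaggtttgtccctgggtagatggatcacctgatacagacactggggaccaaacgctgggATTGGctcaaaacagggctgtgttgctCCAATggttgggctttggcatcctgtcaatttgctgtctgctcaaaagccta
Fasn, chr11:120824548-120824797, minus strand: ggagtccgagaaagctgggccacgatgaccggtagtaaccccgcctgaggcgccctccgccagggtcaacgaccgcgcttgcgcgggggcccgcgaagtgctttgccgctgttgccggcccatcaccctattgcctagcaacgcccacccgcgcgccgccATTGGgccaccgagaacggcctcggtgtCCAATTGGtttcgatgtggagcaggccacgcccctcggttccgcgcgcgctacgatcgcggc
The first Mlxipl window holds the E box 98 bases before the start, with an inverted CCAAT box and 2 GC boxes. The second Mlxipl window holds the sterol element 136 bases before its start. Fasn has 3 inverted CCAAT boxes, 2 of them overlapping on opposite strands, and Thrsp has 2, at 79 and 52 bases before the start. These are letter matches only, and the array data do not say which start was used.

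The arrays were alike in overall level, with medians between 5.72 and 5.88 on the log2 scale. P2rx7 averaged 9.06 ± 0.11 on high-fat diet (n = 4) and 8.06 ± 0.17 on chow (n = 3) in knockout mice, and 9.53 ± 0.17 on high-fat diet and 8.21 ± 0.27 on chow in wild-type mice (SD, n = 3 each). Where its probe set lies relative to the altered exons is not known from the files or labels, so this level checks nothing about the genotype. Adipocyte markers were high in every group, as the tissue label says, and the 10 measured had a mean log2 value of 11.58 to 11.86 in knockout and 11.39 to 11.79 in wild-type arrays on high-fat diet, and of 12.22 to 12.29 in knockout and 12.17 to 12.29 in wild-type arrays on chow. Markers of other cells moved with the diet: the 10 macrophage markers averaged 10.26 to 10.58 in knockout and 10.24 to 10.78 in wild-type arrays on high-fat diet, against 8.13 to 8.58 in knockout and 7.83 to 8.29 in wild-type arrays on chow. The 10 liver markers, which fat cells are not known for, were high in the wild-type chow arrays (7.15 to 8.16), ranged widely in wild-type arrays on high-fat diet (5.55 to 7.57), and read 5.25 to 6.32 in knockout arrays on high-fat diet and 5.804 to 5.913 in knockout arrays on chow. In whole tissue, fewer fat cells and less RNA of a gene per fat cell cannot be told apart.

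Most of the pathway was lower on high-fat diet in both genotypes. In knockout mice 7 of the 10 genes fell and 0 rose (limma, adjusted p under 0.05), where 19.7% of all genes fell and 14.5% rose. In wild-type mice 8 of the 10 fell and 0 rose, where 18.1% of all genes fell and 17.7% rose. The median difference of the 10 genes was -0.80 in knockout and -0.85 in wild-type mice on the log2 scale, beside -0.06 in knockout and -0.03 in wild-type mice over all genes. Thrsp, Acaca, Acacb and Mlxipl fell most in both genotypes, and Me1 and Elovl6 passed the test in neither. The high-fat arrays lay wholly below the chow arrays for 7 of the 10 genes in knockout mice, as for 25.6% of all genes, and for 8 of the 10 in wild-type mice, as for 22.5% of all genes.

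**Figure D1:**
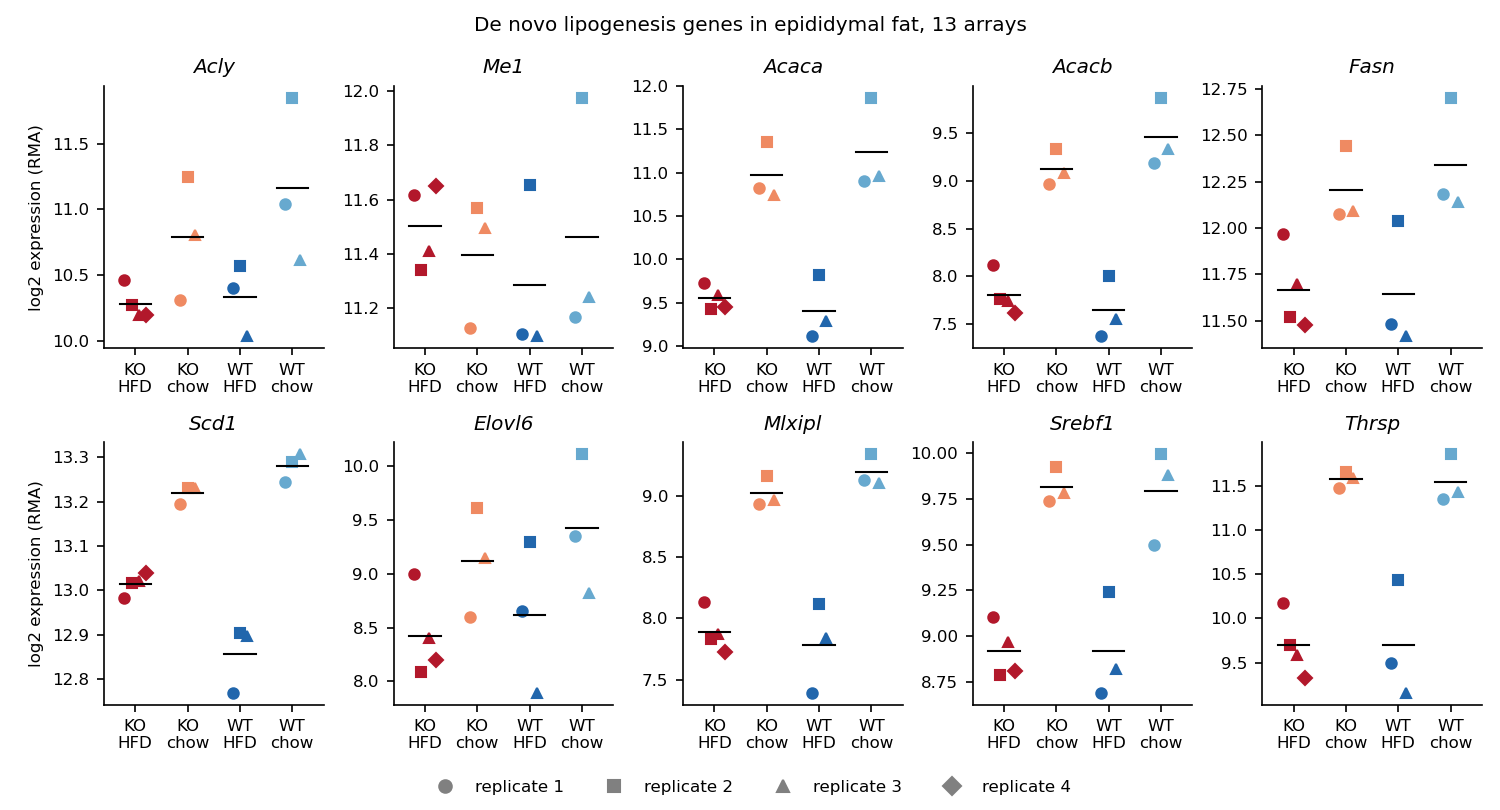
Log2 expression (RMA) of the 10 lipogenesis genes on each of the 13 arrays, 1 panel a gene with its own y axis; symbols give the replicate number and bars the group mean. High-fat arrays lie below chow arrays of the same genotype for 7 genes in knockout and 8 genes in wild-type mice, while Me1 and Elovl6 overlap in both.

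Acly, ATP citrate lyase, makes the cytosolic acetyl-CoA from which the chain is built. In knockout mice its log2 values were 10.46, 10.27, 10.20 and 10.19 on high-fat diet, against 10.31, 11.25 and 10.81 on chow. One knockout chow array therefore lay inside the high-fat range, and the difference of -0.51 ± 0.26 (SE) did not pass (limma adjusted p 0.151, 95% interval -1.06 to 0.05). In wild-type mice Acly read 10.40, 10.57 and 10.03 on high-fat diet, against 11.04, 11.85 and 10.61 on chow, with all chow arrays above all high-fat arrays. The fall of 0.83 on the log2 scale (SE 0.27, adjusted p 0.0294) left 56.2% of the chow level. The call in wild-type mice was lost without chow replicate 2 (-0.49, adjusted p 0.133), without high-fat replicate 1 (adjusted p 0.0559) or 3 (adjusted p 0.112), and when only the wild-type arrays were fitted (adjusted p 0.0821).

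Me1, the cytosolic malic enzyme, gives part of the NADPH that the synthase uses. Its log2 values in knockout mice were 11.62, 11.34, 11.41 and 11.65 on high-fat diet and 11.13, 11.57 and 11.50 on chow, which overlap. In wild-type mice Me1 read 11.11, 11.65 and 11.10 on high-fat diet and 11.17, 11.97 and 11.24 on chow, which overlap as well. The diet difference of Me1 was 0.11 ± 0.19 in knockout mice (adjusted p 0.711) and -0.18 ± 0.20 in wild-type mice (adjusted p 0.556), with intervals of -0.31 to 0.52 and -0.62 to 0.26. Its other probe set gave 0.10 ± 0.19 in knockout and -0.23 ± 0.21 in wild-type mice, also without a call.

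Both carboxylases, which make malonyl-CoA, fell strongly. Acaca, the cytosolic form that feeds the synthase, had log2 values of 9.73, 9.43, 9.59 and 9.45 in knockouts on high-fat diet, against 10.82, 11.36 and 10.74 in knockout mice on chow. It read 9.11, 9.82 and 9.28 in wild-type mice on high-fat diet, against 10.91, 11.86 and 10.96 in wild-type mice on chow. The diets lay far apart in each genotype, with no overlap. Acaca fell by 1.42 ± 0.23 on the log2 scale in knockout mice (adjusted p 0.000292), to 37.3% of chow, and by 1.84 ± 0.24 in wild-type mice (adjusted p 5.03e-05), to 27.9% of chow. A second Acaca probe set fell by 1.51 ± 0.29 in knockout and 2.00 ± 0.31 in wild-type mice.

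Acacb, the carboxylase of the outer mitochondrial membrane, is known for making the malonyl-CoA that holds back fatty acid oxidation. Its log2 values were 8.12, 7.76, 7.74 and 7.62 in knockouts on high-fat diet, against 8.96, 9.33 and 9.08 on chow. In wild-type mice they were 7.37, 8.00 and 7.56 on high-fat diet, against 9.18, 9.87 and 9.34 on chow. No array of one diet reached the range of the other. The fall was 1.32 ± 0.18 in knockout mice (adjusted p 8.16e-05), to 40.2% of chow, and 1.82 ± 0.19 in wild-type mice (adjusted p 7.2e-06), to 28.4% of chow.

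Fasn, the synthase itself, fell less than the carboxylases. In knockout mice it read 11.97, 11.52, 11.70 and 11.48 on high-fat diet, against 12.08, 12.44 and 12.09 on chow, and replicate 1 on high-fat diet came close to the chow arrays. In wild-type mice it read 11.48, 12.04 and 11.42 on high-fat diet, against 12.18, 12.70 and 12.14 on chow, and here high-fat replicate 2 came close to the chow arrays. Fasn fell by 0.54 ± 0.18 in knockout mice (adjusted p 0.0304), to 68.9% of chow, and by 0.69 ± 0.19 in wild-type mice (adjusted p 0.0105), to 61.9% of chow. The knockout call was lost without chow replicate 2 (adjusted p 0.141) or high-fat replicate 2, 3 or 4 (adjusted p 0.0748, 0.0543 and 0.0834), and the wild-type call without chow replicate 2 (-0.51, adjusted p 0.0535).

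Scd1, the stearoyl-CoA desaturase that puts the first double bond into palmitate and stearate, had small but very even differences. It read 12.98, 13.02, 13.02 and 13.04 in knockouts on high-fat diet, against 13.20, 13.23 and 13.23 on chow. In wild-type mice it read 12.77, 12.90 and 12.90 on high-fat diet, against 13.24, 13.29 and 13.31 on chow. The diets did not overlap in either genotype, and the pooled SD within groups was 0.042. Scd1 fell by 0.20 ± 0.04 in knockout mice (adjusted p 0.00221), to 86.8% of chow, and by 0.42 ± 0.05 in wild-type mice (adjusted p 8.26e-06), to 74.5% of chow. Its values lay near the top of the scale, where the highest value of any probe set on any array was 13.86; whether the probe set was near saturation was not tested, and Scd genes of similar sequence may add to its signal. After a second quantile normalization the knockout difference was -0.06 and no longer passed (adjusted p 0.435).

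Elovl6, the elongase that takes palmitate to stearate, was the most variable member. In knockout mice its log2 values were 8.998, 8.09, 8.41 and 8.20 on high-fat diet and 8.60, 9.61 and 9.14 on chow. In wild-type mice they were 8.65, 9.29 and 7.90 on high-fat diet and 9.35, 10.11 and 8.82 on chow. Within each genotype 1 high-fat array lay inside the chow range. The difference of -0.69 ± 0.36 in knockout mice (adjusted p 0.158) and of -0.81 ± 0.38 in wild-type mice (adjusted p 0.12) did not pass, although both were larger than that of Fasn. Without wild-type high-fat replicate 2 the wild-type difference was -1.15 and passed (adjusted p 0.0301).

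Among the regulators, Mlxipl encodes ChREBP, the factor that carries the glucose signal to lipogenic genes. It read 8.13, 7.83, 7.87 and 7.72 in knockouts on high-fat diet, against 8.94, 9.16 and 8.97 on chow. In wild-type mice it read 7.39, 8.12 and 7.84 on high-fat diet, against 9.13, 9.34 and 9.11 on chow. The 2 diets were well apart. Mlxipl fell by 1.13 ± 0.14 in knockout mice (adjusted p 4.54e-05), to 45.6% of chow, and by 1.41 ± 0.15 in wild-type mice (adjusted p 9.61e-06), to 37.7% of chow. The single probe set does not tell the isoforms of its 2 starts apart.

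Srebf1 encodes SREBP-1, which turns on lipogenic genes in response to insulin. Its log2 values were 9.10, 8.79, 8.97 and 8.81 in knockouts on high-fat diet, against 9.74, 9.92 and 9.78 on chow. In wild-type mice they were 8.69, 9.24 and 8.82 on high-fat diet, against 9.497, 9.996 and 9.88 on chow. The diets were apart in both genotypes. The fall was nearly the same size in each, 0.90 ± 0.14 in knockout mice (adjusted p 0.000212) and 0.87 ± 0.15 in wild-type mice (adjusted p 0.000385), to 53.7% and 54.5% of chow. A factor that is cut from the membrane to become active, SREBP-1 is not described by its mRNA alone.

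Thrsp (Spot 14) is a small nuclear and cytosolic protein of lipogenic tissues, known to respond to thyroid hormone and carbohydrate and to support fatty acid synthesis. It read 10.17, 9.71, 9.59 and 9.33 in knockouts on high-fat diet, against 11.47, 11.66 and 11.59 on chow. In wild-type mice it read 9.499, 10.43 and 9.16 on high-fat diet, against 11.35, 11.86 and 11.43 on chow. Every high-fat array was below every chow array. The fall was 1.88 ± 0.25 in knockout mice (adjusted p 7.22e-05), to 27.2% of chow, and 1.85 ± 0.27 in wild-type mice (adjusted p 0.000119), to 27.8% of chow.

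**Figure D2:**
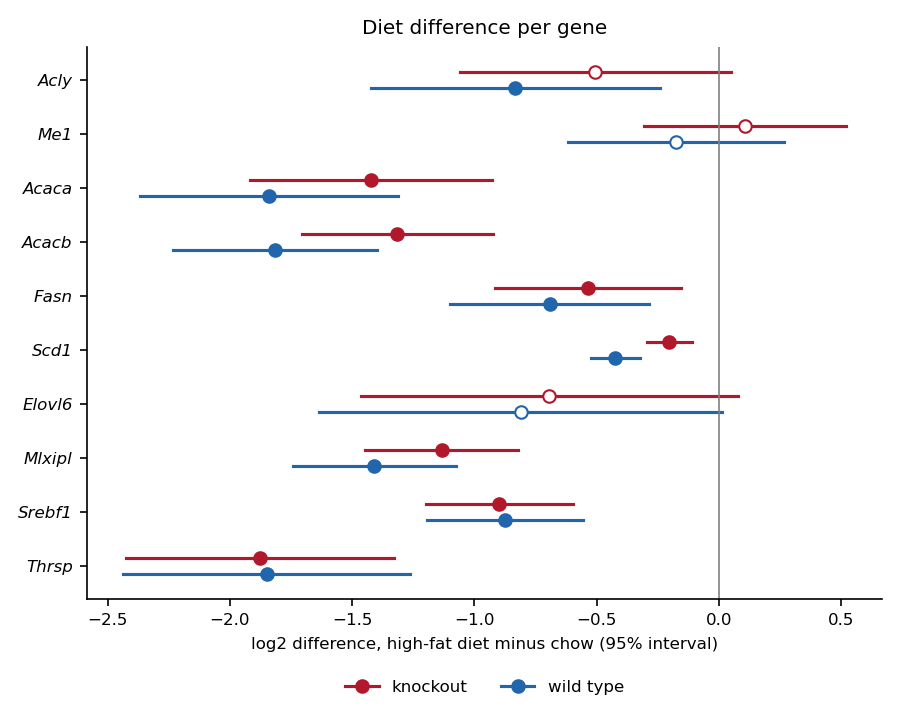
Difference of each lipogenesis gene between high-fat diet and chow (log2, x axis) in knockout and wild-type mice, with 95% intervals from limma; filled points passed at adjusted p under 0.05 and open points did not. Thrsp, Acaca, Acacb and Mlxipl lie between -1.88 and -1.13, and Me1 lies at 0.11 in knockout and -0.18 in wild-type mice.

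P2X7 genotype left no called difference on any of the 10 genes. On high-fat diet the differences, knockout minus wild type, ran from -0.19 (Elovl6) to 0.22 (Me1), and 0 of 10 passed, where 0.0425% of all genes, 8 of them, did. On chow they ran from -0.38 (Acly) to 0.03 (Thrsp), and 0 of 10 passed, where 0.133% of all genes, 25 of them, did. At an unadjusted p under 0.05, 1 of the 10 genes passed on high-fat diet and 0 on chow, beside 1394 and 1810 of all genes. The 95% intervals over the 10 genes reached from -0.96 to 0.64 on high-fat diet and from -1.13 to 0.61 on chow, widest for Elovl6 on both diets. Such intervals do not show that the genotypes are alike.

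The gene that passed unadjusted on high-fat diet was Scd1. Its 4 knockout arrays, 12.98 to 13.04, all lay above the 3 wild-type arrays, 12.77 to 12.90, as for 2.41% of all genes in that direction. The Scd1 difference was 0.16 ± 0.04 (unadjusted p 0.00266, adjusted p 0.521, 95% interval 0.07 to 0.25). On chow Scd1 ran the other way, with knockout arrays at 13.20 to 13.23 below wild-type arrays at 13.24 to 13.31, as for 5.64% of all genes, by -0.06 ± 0.05 (adjusted p 0.702). Acacb differed by 0.17 ± 0.18 on high-fat diet (adjusted p 0.888) and by -0.33 ± 0.19 on chow (adjusted p 0.616), both with overlapping groups. Acacb and Mlxipl lie on chromosome 5. Whether donor-strain DNA kept around the altered P2rx7 allele through the backcross reaches either gene was not tested.

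The diet response, knockout minus wild type, differed by -0.03 to 0.50 among the 10 genes and was above 0 for 8 of them. For 7 of these the fall was smaller in knockout mice, while Me1 was at 0.11 in knockout and -0.18 in wild-type mice, without a call in either. None passed in limma, and neither did any of the 18820 genes (0%), of which 1829 had an unadjusted p under 0.05. Acacb stood at 0.50 ± 0.26 (adjusted p 0.564) and Scd1 at 0.22 ± 0.06 (unadjusted p 0.0038, adjusted p 0.35). The median was 0.25, beside -0.03 over all genes, and the widest 95% interval ran from -1.01 to 1.25. Without wild-type high-fat replicate 2, 106 genes passed for the difference in diet response, none of them among the 10. For genotype on high-fat diet 177 genes then passed, so the counts over all genes depended on that array. In its group it had the highest mean of liver (7.57), adipocyte (11.79) and endothelial (9.84) markers and the lowest of macrophage markers (10.24). Which of these traits mattered was not tested.

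**Figure D3:**
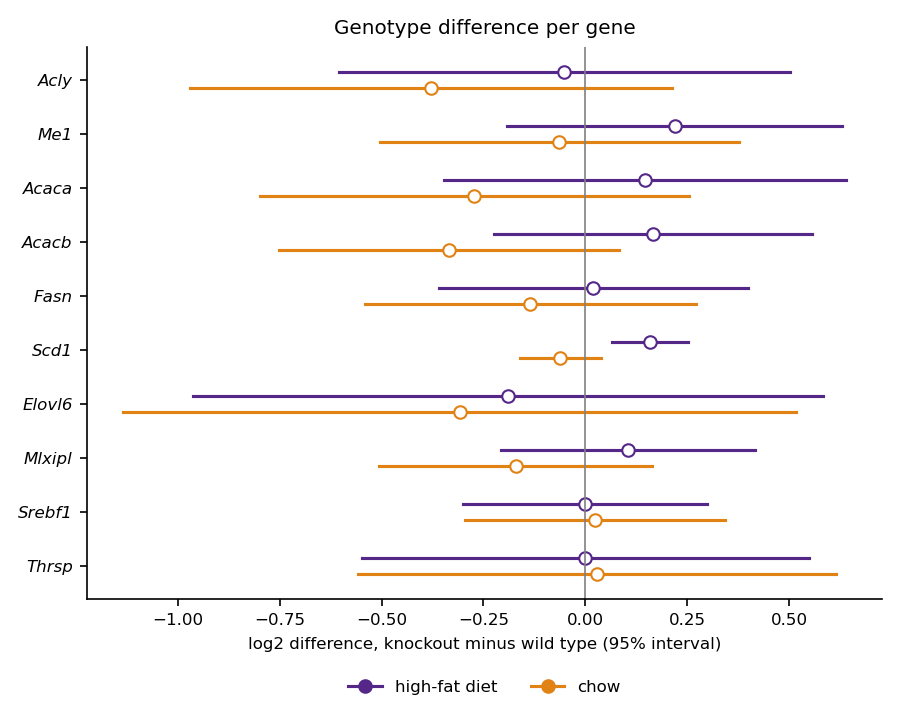
Difference of each lipogenesis gene between knockout and wild-type mice (log2, x axis) on high-fat diet and on chow, with 95% intervals from limma; open points did not pass at adjusted p under 0.05. All 20 points are open, and the Scd1 interval on high-fat diet, 0.07 to 0.25, is the one that leaves out 0 before adjustment.

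Beyond the diet, the genes varied together from array to array within groups. After each group mean was subtracted, wild-type high-fat replicate 2 was the highest of its group for 10 of the 10 genes, with a mean deviation of 0.39. Wild-type chow replicate 2 (0.39) and knockout chow replicate 2 (0.23) were each the highest for 9 genes, and knockout high-fat replicate 1 (0.25) for 8. In each group 1 array therefore stood above the rest across the pathway. The replicate number is not shared litter or batch as far as the labels say.

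Over the 45 pairs of genes, the correlation of these deviations across 13 arrays had a median Pearson r of 0.788, from -0.067 to 0.938, and 20 pairs were above 0.8. Acacb with Fasn (0.938), Acaca with Acacb (0.924) and Acaca with Fasn (0.924) were the closest, pairs among the carboxylases and the synthase. Scd1 stood outside, at r = 0.226 with the mean of the other 9, while the others reached 0.755 (Mlxipl) to 0.976 (Fasn). The arrays share RNA quality, dissection and normalization across genes, so these values are a description. The spread itself was large for most members: the SD within groups was 0.559 for Elovl6, at percentile 99.5 of all genes, 0.399 for Acly (percentile 98.4), 0.395 for Thrsp (98.3) and 0.354 for Acaca (97.6), and at the low end 0.042 for Scd1 (1.45).

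**Figure D4:**
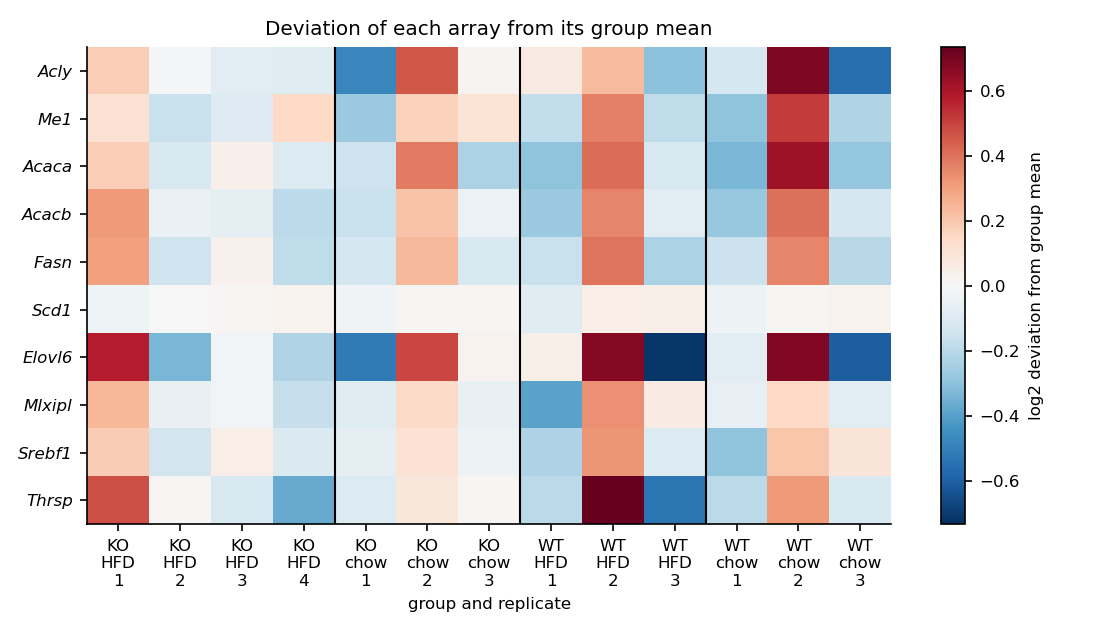
Heat map of the log2 deviation of each array (columns, by group and replicate) from its group mean for each lipogenesis gene (rows). Wild-type high-fat replicate 2, wild-type chow replicate 2, knockout chow replicate 2 and knockout high-fat replicate 1 are red for most genes, and the Scd1 row is pale throughout.

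The same deviations moved with markers of the cells in the tissue. Across the 13 arrays the mean deviation of the 10 lipogenesis genes had a Pearson r of -0.966 (Spearman -0.918) with that of the macrophage markers, and of -0.936 over the 11 arrays left without wild-type chow replicate 2 and wild-type high-fat replicate 2. All 10 macrophage markers ran against the lipogenesis genes, from -0.963 (Ms4a7) to -0.544 (Cd14). Arrays with more lipogenesis RNA than their group thus had less macrophage RNA. The adipocyte markers ran with the genes, at r = 0.712 (Spearman 0.604, 0.562 without the same 2 arrays), 10 of 10 above 0, and the endothelial markers at 0.656. For liver markers r was 0.548 (Spearman 0.495), with Thrsp the highest of the members at 0.789 and Elovl6 at 0.619. The part of these cells in the lipogenesis values was not tested.

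**Figure D5:**
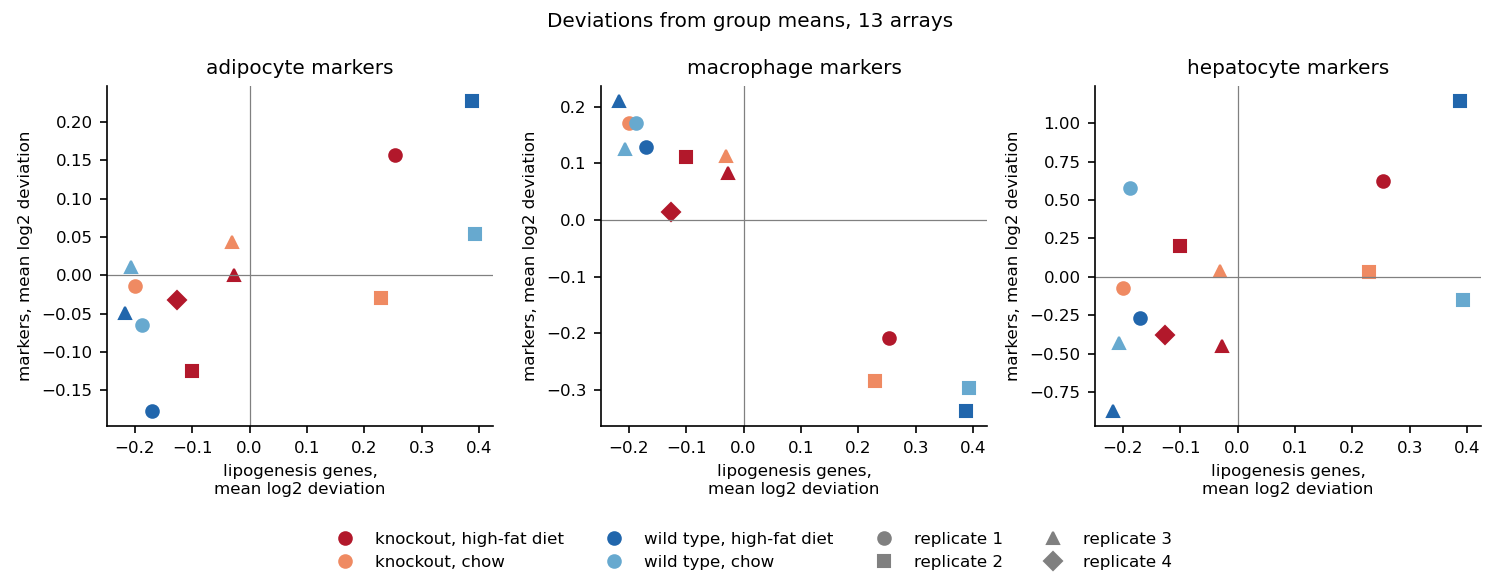
Mean log2 deviation from the group mean of adipocyte, macrophage and liver markers (y axes) against that of the 10 lipogenesis genes (x axes), 1 point per array. The macrophage panel falls from upper left to lower right (r = -0.966), the adipocyte panel rises (r = 0.712) and the liver panel is loose (r = 0.548).

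Beside the diet result, markers of several cell types moved with the diet. Over all genes 19.7% fell and 14.5% rose in knockout mice, and 18.1% fell and 17.7% rose in wild-type mice. Of 10 adipocyte markers 8 fell and 1 rose in knockout mice, and 9 fell and 1 rose in wild-type mice. Their medians were -0.64 in knockout and -0.72 in wild-type mice. The marker that rose was Lep in both, by 0.29 ± 0.11 in knockout and 0.37 ± 0.11 in wild-type mice. The knockout call of Lep was close to the threshold (limma adjusted p 0.0471), and its groups overlapped. The fat cell transcription factor Cebpa fell by 0.98 ± 0.11 in knockout and 1.01 ± 0.12 in wild-type mice, and the adipokine Retn by 1.07 ± 0.11 in knockout and 1.23 ± 0.12 in wild-type mice. The medians of the lipogenesis genes, -0.80 and -0.85, were close to those of the adipocyte markers, and no test of that difference was made. All 10 macrophage markers rose in both genotypes, among them Trem2 of lipid-laden macrophages by 3.26 ± 0.21 in knockout and 3.89 ± 0.22 in wild-type mice. Summed over markers on the linear scale, adipocyte signal was 33886 to 40752 in knockout and 29666 to 38615 in wild-type arrays on high-fat diet, against 52108 to 53912 in knockout and 49444 to 54099 in wild-type arrays on chow. Among the other lists, 6 of 6 mesothelial markers fell in both genotypes, for example Upk3b by 1.20 ± 0.28 in knockout and 1.47 ± 0.30 in wild-type mice. Of 6 endothelial markers 2 fell in knockout and 5 in wild-type mice. Of 6 fibroblast markers 3 rose in knockout and 2 in wild-type mice, with medians of 0.21 in knockout and 0.10 in wild-type mice. The collagen gene Col1a1 rose by 1.01 ± 0.11 in knockout and 1.03 ± 0.12 in wild-type mice. Without a call, Pi16 (-0.26) and Dpt (-0.06) were below 0 in knockout mice, as were Dcn (-0.14), Dpt (-0.09) and Pdgfra (-0.02) in wild-type mice. Of 5 skeletal muscle markers 1 fell in each genotype, and of 4 epididymis and testis markers 1 fell in knockout and 0 in wild-type mice. The muscle, epididymis and testis counts, of few markers, were near the shares over all genes. The endothelial count in knockout mice and the fibroblast count in wild-type mice were not far above those shares. The part of these cells in the fall of the pathway was not tested.

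Of 10 hepatocyte markers, 1 fell in knockout mice, where 19.7% of all genes did, and 6 in wild-type mice, where 18.1% did. They included the amino acid enzyme Tat (-0.69 ± 0.22 in knockout, -1.58 ± 0.23 in wild type), the fibrinogen chain Fgb (-0.41 ± 0.36 in knockout, no call, -1.96 ± 0.38 in wild type) and the apolipoprotein Apoa2 (-0.31 ± 0.43 in knockout, no call, -1.73 ± 0.46 in wild type). These had the smallest p in wild-type mice. Tat lay below the array medians on the knockout arrays and on the wild-type high-fat arrays, as did Fgb on the knockout arrays. A level above background was therefore not shown there. Without a call, Ahsg (0.70 ± 0.36), Cps1 (0.07 ± 0.30) and Serpina1b (0.04 ± 0.84) were above 0 in knockout mice, as was Serpina1b (0.29 ± 0.90) in wild-type mice. Summed, the 10 markers gave 510 to 1698 in knockout and 756 to 4858 in wild-type arrays on high-fat diet, against 966 to 1103 in knockout and 3040 to 5644 in wild-type arrays on chow. With the mean of the liver markers as a covariate, 7 of the 10 lipogenesis genes fell in knockout mice, where 19.5% of all genes fell in the same fit, and 6 of the 10 in wild-type mice, where 12.3% did. Fasn (-0.41, adjusted p 0.178) and Acly (-0.56, adjusted p 0.263) were then no longer called in wild-type mice, and Elovl6 was at -0.17. Thrsp (-1.27, adjusted p 0.000948), Acaca (-1.64, adjusted p 0.00143) and Acacb (-1.58, adjusted p 0.000212) were still called. The liver markers themselves differed between the groups, being mostly higher in wild-type chow arrays. The covariate therefore takes up part of the wild-type diet difference, and this fit cannot separate diet from liver RNA.

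The genes whose deviations were most like the mean of the 10 were read from all other named genes on the array. They were Pmm1 (a phosphomannomutase, r = 0.959 over 13 arrays), Ttc7b (0.957), Acss2 (0.957), which makes acetyl-CoA from acetate, Tlcd1 (0.955), Gpd1 (0.954), which makes glycerol 3-phosphate for triglyceride, and Cidea (0.95), a lipid droplet protein. Their diet differences were mostly small. Only Tlcd1 among these 6 was called, with a fall of 0.65 ± 0.18 in knockout mice (adjusted p 0.0121) and 0.79 ± 0.19 in wild-type mice (adjusted p 0.00515). The others lay between -0.38 and 0.08 in knockout and between -0.34 and -0.06 in wild-type mice, with overlapping groups. Cidea lay below the array median on most arrays, so a level above background was not shown for it.

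Around the 10 genes, 46 further genes of supply, modification and control were measured. In knockout mice 7 rose and 17 fell, and in wild-type mice 6 rose and 17 fell, so that falls among them were 17 of 46 in each, beside 19.7% and 18.1% of all genes. No gene of the 46 passed for genotype on either diet or for the difference in diet response. The diet and genotype comparisons share arrays and are not independent of each other.

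Among genes of acetyl-CoA supply, those that changed fell. Of 8 genes, 4 fell in knockout mice, where 19.7% of all genes fell, and 5 in wild-type mice, where 18.1% fell. None rose, while 14.5% and 17.7% of all genes did. Slc2a4, the insulin-regulated glucose transporter GLUT4, read 8.51, 7.97, 8.06 and 7.97 in knockouts on high-fat diet, against 10.38, 10.40 and 10.35 on chow. In wild-type mice Slc2a4 read 7.70, 8.61 and 7.72 on high-fat diet, against 10.06, 10.48 and 10.43 on chow. Slc2a4 fell by 2.25 ± 0.20 in knockout mice (adjusted p 1.93e-06) and by 2.31 ± 0.21 in wild-type mice (adjusted p 2.01e-06), more than any of the 10 lipogenesis genes. Hk2, the hexokinase of insulin-sensitive tissues, fell by 1.09 ± 0.13 in knockout and 1.30 ± 0.14 in wild-type mice. The mitochondrial pyruvate carrier subunit Mpc1 fell by 0.40 ± 0.11 in knockout and 0.68 ± 0.12 in wild-type mice, and the pyruvate dehydrogenase subunit Pdhb by 0.48 ± 0.16 in knockout and 0.70 ± 0.17 in wild-type mice. The knockout call of Pdhb was lost in 5 of 13 fits that left out an array (adjusted p up to 0.173, without chow replicate 2 or 3 or high-fat replicate 1, 2 or 3).

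Calls among genes of NADPH supply were about as common as over all genes, or rarer. Of 6, 1 rose and 1 fell in knockout mice, where 14.5% of all genes rose and 19.7% fell. In wild-type mice 0 rose and 1 fell, where 17.7% of all genes rose and 18.1% fell. Tkt, the transketolase of the pentose phosphate pathway, fell by 0.59 ± 0.18 in knockout mice (adjusted p 0.0187) and by 0.63 ± 0.19 in wild-type mice (adjusted p 0.018). Idh1, the cytosolic isocitrate dehydrogenase, differed by 0.24 ± 0.07 in knockout mice, which passed (adjusted p 0.0201), and by 0.13 ± 0.08 in wild-type mice, which did not (adjusted p 0.237). Pgd, of the pentose phosphate pathway, differed by -0.04 ± 0.08 in knockout and 0.16 ± 0.08 in wild-type mice, and the mitochondrial malic enzyme Me3 by -0.25 ± 0.12 in knockout and -0.34 ± 0.12 in wild-type mice, all without a call. Me3 in wild-type mice lay at the threshold (adjusted p 0.0503) and passed under 6 of 9 other settings. Its values on high-fat diet lay below the array medians, so a level above background was not shown there.

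Genes of fatty acid elongation and desaturation other than Elovl6 and Scd1 gave calls in both directions, as did the array as a whole. Of 11 genes, 3 rose and 1 fell in knockout mice, beside 14.5% and 19.7% of all genes. In wild-type mice 3 rose and 2 fell, beside 17.7% and 18.1% of all genes. Elovl3, an elongase of very long saturated chains best known from brown fat and skin, read 7.26, 5.88, 6.72 and 6.60 in knockouts on high-fat diet, against 3.63, 3.77 and 4.10 on chow. In wild-type mice Elovl3 read 5.68, 7.43 and 6.56 on high-fat diet, against 4.77, 4.24 and 4.06 on chow. Elovl3 rose by 2.78 ± 0.36 in knockout mice (adjusted p 5.56e-05) and by 2.20 ± 0.39 in wild-type mice (adjusted p 0.000551), while both Elovl6 differences were below 0. The chow values of Elovl3 lay below the array medians and the files hold no detection calls, so a chow level above background was not shown and the size of the rise is uncertain. Elovl1 rose by 0.30 ± 0.07 in knockout and 0.55 ± 0.07 in wild-type mice. The desaturase Fads1 fell by 0.37 ± 0.09 in knockout and 0.55 ± 0.09 in wild-type mice. Fads2, which acts before it on the same chains, differed by -0.22 ± 0.09 in knockout mice without a call (adjusted p 0.0931) and fell by 0.43 ± 0.10 in wild-type mice (adjusted p 0.00397).

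Regulators gave calls in both directions, as did the array as a whole. Of 14 measured, 3 rose and 6 fell in knockout mice, beside 14.5% and 19.7% of all genes. In wild-type mice 3 rose and 5 fell, beside 17.7% and 18.1% of all genes. Srebf2, the relative of Srebf1 that controls cholesterol synthesis, rose by 0.22 ± 0.07 in knockout mice (adjusted p 0.0322) and by 0.45 ± 0.08 in wild-type mice (adjusted p 0.000496), while Srebf1 fell. The Srebf2 call in knockout mice was lost in 5 of the 13 fits without 1 array, those of knockout chow replicates 1, 2 and 3 and high-fat replicates 2 and 3, with an adjusted p of up to 0.109. Insig1, which holds SREBPs in the endoplasmic reticulum, read 11.53, 10.99, 11.20 and 11.41 in knockouts on high-fat diet, against 10.10, 10.41 and 10.49 on chow, and rose by 0.95 ± 0.17. In wild-type mice Insig1 read 11.10, 11.61 and 10.82 on high-fat diet, against 10.13, 10.28 and 10.17 on chow, and rose by 0.99 ± 0.18. Txnip, a glucose-responsive gene known as a ChREBP target, fell by 0.27 ± 0.05 in knockout and 0.43 ± 0.05 in wild-type mice. Rxra, the partner of nuclear receptors such as LXR, fell by 0.69 ± 0.09 in knockout and 0.61 ± 0.10 in wild-type mice.

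AMP-activated protein kinase phosphorylates and inhibits both carboxylases, and several of its subunits fell beside them. Of 7 subunit genes 5 fell in knockout mice, where 19.7% of all genes fell, and 4 in wild-type mice, where 18.1% fell. None rose, while 14.5% and 17.7% of all genes did. The catalytic subunits Prkaa1 and Prkaa2 fell by 0.53 ± 0.05 and 0.79 ± 0.12 in knockout mice and by 0.71 ± 0.06 and 1.10 ± 0.13 in wild-type mice. The regulatory subunits Prkag2 and Prkag3 fell by 0.80 ± 0.07 and 1.28 ± 0.24 in knockout mice and by 0.86 ± 0.07 and 0.93 ± 0.25 in wild-type mice. The kinase is set by phosphorylation, which the arrays did not measure.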

How the data were processed

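The authors deposited log2 values for each probe set, summarised with RMA (robust multi-array averaging) of unstated version, per the submitters' processing notes. Labelling used 100 ng of total RNA per array, per the labels' protocols. RMA normally scales arrays to a common distribution, so a shift of all RNA would not show. Of 35556 probe sets, 21218 had a single symbol by the platform annotation, which gave 18820 genes, each read by its probe set of highest mean. Limma 3.58.1 (R 4.3.3, with the data.table package, version 1.17.8) was fitted on all 13 arrays with 4 group means and an intensity trend. P-values were Benjamini-Hochberg adjusted over all genes, and ± after a log2 change is its SE. Figures used numpy 2.4.6, matplotlib 3.10.9 and Python 3.11.15.

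The 10 genes and all lists were chosen with earlier results of these data known. Named were those 10, P2rx7 and the 6 genes closest to the mean of the 10. Of each pathway list up to 4 genes were named, and of the adipocyte, macrophage and hepatocyte lists 3. These had the smallest p for diet in wild-type mice. Cd14, Upk3b, Lep, Col1a1, Pi16, Dpt, Dcn, Pdgfra, Ahsg, Cps1 and Serpina1b were named after their values were seen. Listed genes not measured here by a probe set of 1 symbol were Pdha1, Pc, Mpc2, G6pdx, Nr1h2, Mbtps2, Adrb3, Cfd and Crisp1. The fit was tested on simulated arrays with known changes. Precision is limited by how many arrays there were. The alternatives varied the variance trend, scaling, filter, probe set rule, array weights, arrays in the fit, replicate block and a liver covariate, and left out each array in turn. Probe sets with several symbols (1881) or none (12457) were left out.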

Additional observations from a re-analysis of the deposited data

Results flagged for a closer look

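Of 46 named genes, 3 had an array far from the other 3 of its group among the 4 knockout arrays on high-fat diet. Chance sets apart about 1 in 20 such groups, so 3 of 46 is near that share. The other groups of 3 were not tested. Slc2a4 stood at 8.51 in replicate 1, against 7.97 to 8.06 in the others, a gap of 0.835 of the group's range. Pmm1 stood at 8.24 in the same replicate 1, against 7.87 to 7.91, a gap of 0.874 of the range. Pmm1 was named for its correlation with the mean of the 10 lipogenesis genes, so its height there is not separate from theirs. Txnip stood at 12.36 in replicate 4, against 12.25 to 12.26, a gap of 0.904 of the range. Replicate 1 was also the highest of its group for 8 of the 10 lipogenesis genes.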

How the results depend on the processing

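The 10 lipogenesis genes gave 6 to 7 falls in knockout mice and 6 to 8 in wild-type mice under 9 other settings. When an array was left out they gave 6 to 7 in knockout and 6 to 9 in wild-type mice. Over all genes, falls under the settings numbered 3140 to 4538 in knockout and 2307 to 4352 in wild-type mice. The main fit gave 3708 and 3409 falls of 18820 genes, and the filter setting tested fewer genes. With an array left out, calls in either direction over all genes numbered 5105 to 6652 in knockout and 5678 to 7039 in wild-type mice. Calls of Acaca, Acacb, Mlxipl, Thrsp and Srebf1 held in both genotypes under all settings and with each array left out, as did that of Scd1 in wild-type mice. The losses for Acly, Fasn and Scd1 are given above, and Fasn in knockout mice was also lost with the replicate block (adjusted p 0.0564). Among other genes, knockout calls were also lost for Mpc1 (without chow replicate 2 or 3), Idh1 (chow 1, high-fat 4, replicate block), Tat (chow 1, high-fat 3 or 4), Srebf2 (also replicate block), and Tkt and Tlcd1 (chow 2), and wild-type calls for Prkag3 (chow 1, high-fat 1, liver covariate), Tkt (high-fat 3, liver covariate, only those groups), Apoa2 (only those groups) and Tlcd1 (liver covariate). None of the 10 passed for genotype or for the difference in diet response under any setting. Differences near 0 changed sign without a call: with the liver covariate, in wild-type mice, Me1 (0.0014), Pmm1 (0.0283), Ttc7b (0.0953), Acss2 (0.0991) and Gpd1 (0.13), and Acacb for genotype on chow (0.0073). With arrays left out, knockout values ranged from -0.0289 to 0.19 for Me1, -0.0933 to 0.0058 for Pgd and -0.39 to 0.0229 for Acss2, and wild-type values from -0.36 to 0.0795 for Me1, -0.22 to 0.0705 for Gpd1 and -0.60 to 0.0575 for Cidea. The count over all genes for genotype on chow, 25, became 6 with the replicate block, 9 with the liver covariate and 2 to 44 with an array left out. For genotype on high-fat diet, 8 became 2 with only those groups fitted, 0 with the replicate block, 14 with the liver covariate and 6 to 177. For the difference in diet response, 0 became 2 without the intensity trend, 1 after median centring, 1 with array weights and 0 to 106. Median centring changed the wild-type diet split over all genes to 2874 higher and 4352 lower, against 3327 higher and 3409 lower. Deviations of same-numbered arrays correlated at -0.298 to 0.222, over 0.1 in 6 of 18 pairs. Pairs of different number correlated at -0.412 to 0.534, over 0.1 in 10 of 45 pairs. The highest of all was wild-type high-fat replicate 2 with knockout high-fat replicate 1 (0.534). Of 12 arrays, 4 were closest to their own number. The replicate 2 arrays of knockout chow, wild-type high-fat and wild-type chow correlated at 0.140 to 0.222. As not every pair passed 0.1 and the labels name no shared source, the numbers were not taken to pair arrays. The cause of these changes was not tested.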
